A study of Sus scrofa with 6 samples.

Results

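Expression of the posterior HOX genes was compared between back skin, which is white, and buttock skin, which is black, in Bama pigs. They were taken as the mRNAs whose identifier carries a symbol of HOXA, HOXB, HOXC or HOXD with a paralog number from 9 to 13 in the supplementary lists of mRNAs of the study, which gave 6 of the 14900 mRNAs of the deposited table (HOXA10, HOXA11, HOXA13, HOXC10, HOXC13 and HOXD10). The readable part of these lists holds mostly mRNAs that are lower in white skin: 1991 of the 1998 rows found in the deposited table had a lower mean in white skin, against 69.7% of all mRNAs. The direction of these 6 genes is therefore fixed by the list and is given as a description. A table pairing identifiers with symbols named 5 more genes of the same paralogs in the deposited table (HOXA9, HOXC9, HOXC11, HOXD9 and HOXD11), and all 11 are reported together. These 5 are the genes left after those with a symbol in the readable part of the lists were set apart. They are therefore not an unselected set either. The identifier of HOXA9 stands in the readable part too, without a symbol, so its direction is fixed by the list as well. HOXB13, HOXC12, HOXD12 and HOXD13 have a position in the RefSeq gene table and no row of that name in the mRNA table.

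The samples came from 3 unrelated female pigs of the Bama breed aged 2 years, each giving a white sample from the back and a black sample from the buttock, cut to a depth of 8 mm (n = 3 per skin). No treatment or genetic change is named in the labels. Poly(A) RNA was sequenced, and expression is given as FPKM, that is, fragments scaled to transcript length and to the size of the library, so that levels are comparable between genes. Skin color and body site cannot be told apart in this design, and the number of reads behind a value is unknown.

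HOX genes encode transcription factors that bind DNA through a homeodomain, and they lie in 4 clusters named A to D. Within a cluster, genes with low paralog numbers act in anterior parts of the embryo and those with high numbers act in posterior parts and in the distal limb. Adult skin fibroblasts keep HOX patterns that depend on the body site of origin, which makes these genes known markers of position in skin.

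The comparison of the skins used limma on log2(FPKM + 0.5) over all 14900 mRNAs. The log2 fold change (log2FC) is white minus black on this scale, which understates the change of genes with a low FPKM. A gene passed when its Benjamini-Hochberg adjusted p was below 0.05 and its log2FC exceeded 1 in size, and such a gene is called up- or down-regulated here. Of the 11 posterior HOX genes, HOXA9, HOXA10, HOXA11 and HOXC10 were down-regulated in white skin and none was up-regulated. Of all mRNAs 3.62% were down-regulated and 2.62% were up-regulated. Of the 5 genes named by the identifier table alone, 1 was down-regulated (HOXA9), and its identifier stands in the supplementary lists without a symbol. The other 3 belong to the 6 genes from these lists. The direction of all 4 was thus fixed by the lists, and nothing is read from their number. The authors kept mRNAs above 0.5 FPKM in at least 1 sample, and 6 of the 11 genes were above it only in black skin (HOXA10, HOXA11, HOXA13, HOXC10, HOXC11 and HOXD11), so that these could enter the table only with a higher level there. Counts and medians over the 11 genes, the 6 or the 5 therefore describe them and support no statement about a group. The split over all mRNAs, 539 down-regulated and 391 up-regulated, turned to 217 and 483 with quantile normalization and to 294 and 558 with upper-quartile scaling. An unadjusted p below 0.05 with a lower level in white skin was found for 3 of the 5 and 4 of the 6 genes, and for 20.6% of all mRNAs. The 3 white values lay below all 3 black values for the same numbers of genes, 3 of the 5 and 4 of the 6, and for 25.7% of all mRNAs. The median log2FC was -0.82 over the 5 genes, -1.65 over the 6 genes and -0.31 over all mRNAs. The remaining 7 genes did not pass, with adjusted p-values from limma between 0.0675 and 0.759.

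**Figure D1:**
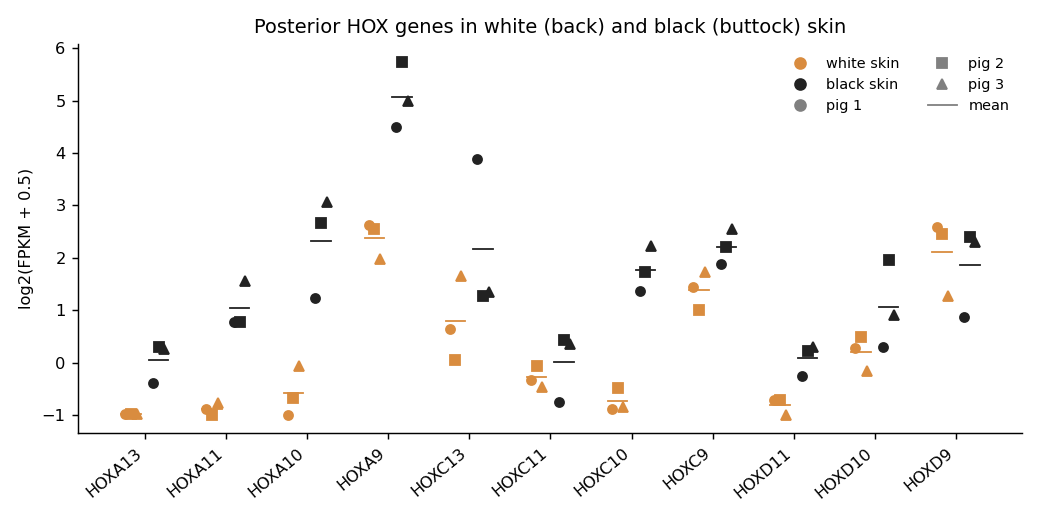
The plot of each sample gives log2(FPKM + 0.5) on the vertical axis for the 11 posterior HOX genes, with orange for white skin, black for black skin, a marker shape for each pig and a line at the mean. HOXA9, HOXA10, HOXA11 and HOXC10 show the widest separation of the skins, whereas the values of HOXC11, HOXC13, HOXD9 and HOXD10 overlap.

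In the HOXA cluster, on chromosome 18, all 4 measured posterior genes were higher in every black sample than in any white sample. Of all mRNAs, 25.7% lay apart in this way. The direction of these 4 genes was fixed by the supplementary lists, and HOXA10, HOXA11 and HOXA13 were above 0.5 FPKM only in black skin. Nothing is read from their number. HOXA9 (ENSSSCG00000028997), a regulator of axial patterning and of blood cell progenitors, lies at chr18:45404594-45411512 of the assembly Sscrofa11.1 in the RefSeq annotation. Its FPKM was 5.66, 5.36 and 3.42 in white skin of pigs 1, 2 and 3, and 21.9, 53.1 and 31.5 in black skin. HOXA9 had the highest level of the posterior genes in black skin, at 35.5 ± 15.97 (SD, n = 3) against 4.81 ± 1.21 (SD, n = 3) in white skin. The log2FC was -2.70 (SE, the standard error, 0.35), with an adjusted p of 0.0124 from limma.

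HOXA10 (ENSSSCG00000021204), which patterns the lumbar skeleton and the uterus, lies at chr18:45393525-45403259. Its white samples were listed at 0, 0.127 and 0.461 FPKM in pigs 1, 2 and 3, and its black samples at 1.85, 5.86 and 7.82. The lowest black value was thus several times the highest white value. The log2FC was -2.90 (SE 0.50), with an adjusted p of 0.0231 from limma.

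HOXA11 (ENSSSCG00000016698), which is required for the middle segment of the limb and for the uterus, lies at chr18:45388523-45392190. Its FPKM was listed at 0.0437, 0 and 0.0832 in white skin and at 1.21, 1.21 and 2.46 in black skin of pigs 1, 2 and 3. The gene was thus near the lower end of the listed values in white skin and low in black skin. The log2FC was -1.92 (SE 0.31), with an adjusted p of 0.0194 from limma.

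HOXA13 (ENSSSCG00000029666), which acts in the digits and the genital tubercle, lies at chr18:45373340-45379046. It had the lowest level of the 4 HOXA genes in black skin, with 0.268, 0.730 and 0.701 FPKM in pigs 1, 2 and 3. The white samples of these pigs were at 0.00911, 0.01001 and 0.00872 FPKM. The skins did not overlap, and the log2FC of -1.03 (SE 0.28) did not pass the threshold (limma, adjusted p = 0.0675). With a pseudocount of 0.1 in place of 0.5 the log2FC was -2.52 and passed, with an adjusted p of 0.0475 from limma. It also passed without black skin of pig 1 (log2FC -1.26, limma, adjusted p = 0.0372).

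The identifiers of HOXA9, HOXA10 and HOXA11 stand under 1 merged locus in the supplementary list of the study, where that of HOXA9 has no symbol, so reads on shared transcripts may have been divided among them. Among the HOXA genes of black skin, the level fell from HOXA9 to HOXA10, HOXA11 and HOXA13, in the order of the cluster and in each of the 3 pigs, although the black values of HOXA10 and HOXA11 overlapped between pigs (1.85 to 7.82 and 1.21 to 2.46 FPKM).

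In the HOXC cluster, on chromosome 5, HOXC10 (ENSSSCG00000022728) was the gene that passed. HOXC10 is a gene of the lumbar spinal cord and the hindlimb, and it lies at chr5:19197810-19202975. Its FPKM was 0.0425, 0.215 and 0.0532 in white skin and 2.08, 2.82 and 4.19 in black skin of pigs 1, 2 and 3. The mean was 0.104 ± 0.0967 (SD, n = 3) in white against 3.03 ± 1.07 (SD, n = 3) in black skin. The log2FC was -2.52 (SE 0.32), and the adjusted p of 0.0113 from limma was the lowest among the 11 genes.

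The neighbours of HOXC10 in the cluster did not pass. HOXC9 (ENSSSCG00000034474), a thoracic patterning gene at chr5:19212490-19215859, had 2.21, 1.51 and 2.82 FPKM in white skin and 3.19, 4.10 and 5.36 in black skin of pigs 1, 2 and 3. The skins did not overlap, but the log2FC was -0.82 (SE 0.31, limma, adjusted p = 0.134). HOXC11 (ENSSSCG00000028104), at chr5:19181580-19189031, had 0.300, 0.455 and 0.229 FPKM in white skin and 0.0972, 0.853 and 0.773 in black skin. Its lowest value of the 6 samples was in black skin of pig 1, and the log2FC was -0.29 (SE 0.37, limma, adjusted p = 0.612).

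HOXC13 (ENSSSCG00000000279), which lies at chr5:19151096-19159008, differs in its known role from the other members, because it acts in the hair follicle and activates hair keratin genes. Its FPKM was 1.07, 0.539 and 2.66 in white skin and 14.3, 1.92 and 2.06 in black skin of pigs 1, 2 and 3. The single high value was black skin of pig 1, and the remaining black values lay below the highest white value. The log2FC was -1.38 (SE 0.73, limma, adjusted p = 0.248) with all samples and -0.53 without black skin of pig 1. The 16 measured genes of a list of hair shaft and follicle markers summed to 12579 FPKM in that sample. This sum was 284 to 496 FPKM in black skin of pigs 2 and 3 and 3.59 to 216 in white skin. White skin of pig 2 had the lowest value of the 6 samples both for HOXC13 and for this sum. In pigs 1 and 2 both were lower in white than in black skin. In pig 3 they went in opposite directions. HOXC13 was higher in its white skin (2.66 against 2.06 FPKM), where the hair sum was lower (147 against 284). None of the 16 hair genes passed with limma. An unadjusted p below 0.05 with a lower level in white skin was found for 11 of them and for 20.6% of all mRNAs. With the pig as a block 7 passed (KRT27, KRT28, KRT35, KRT71, KRT73, KRT74 and KRT82), where 9.66% of all mRNAs passed. The keratins KRT71 and KRT25 had the largest changes, with log2FC values of -5.13 and -5.08 (limma, adjusted p = 0.121 and 0.153). The part of the hair follicles in the values of HOXC13 was not tested. In bulk skin, fewer cells of a type and less RNA per cell cannot be told apart.

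**Figure D2:**
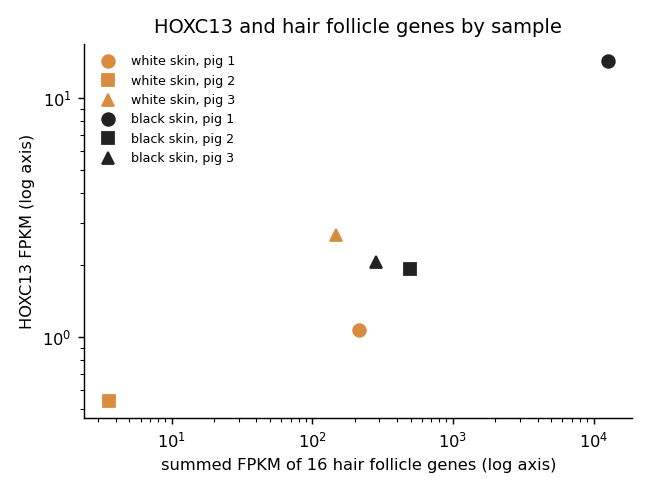
The plot of HOXC13 against hair genes gives, for each of the 6 samples, the summed FPKM of 16 hair follicle genes on the horizontal axis and the FPKM of HOXC13 on the vertical axis, both logarithmic. Black skin of pig 1 stands apart at 12579 and 14.3 FPKM.

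In the HOXD cluster, on chromosome 15, none of the 3 measured posterior genes passed, and 1 of them, HOXD11, had an unadjusted p below 0.05. Of all mRNAs, 20.6% had one with a lower level in white skin, and HOXD11 was above 0.5 FPKM only in black skin. HOXD11 (ENSSSCG00000034741), which acts with HOXA11 in the limb, lies at chr15:81906654-81910765. Its values were 0.107, 0.110 and 0 FPKM in white skin and 0.343, 0.671 and 0.728 in black skin of pigs 1, 2 and 3. Its skins did not overlap, with a log2FC of -0.90 (SE 0.28, limma, adjusted p = 0.0844).

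HOXD10 (ENSSSCG00000015981), a gene of the lumbar spinal cord and the limb at chr15:81911372-81921164, had 0.717, 0.902 and 0.400 FPKM in white skin and 0.727, 3.39 and 1.38 in black skin. Black skin of pig 1 lay within the range of the white samples, and the log2FC was -0.85 (SE 0.44, limma, adjusted p = 0.243). HOXD9 (ENSSSCG00000015982), at chr15:81910415-81926276, had 5.498, 4.99 and 1.93 FPKM in white skin and 1.34, 4.79 and 4.42 in black skin. It was the single gene of the 11 with a higher mean in white skin, and its direction differed among the pigs, with a lower white value in 1 of 3. The log2FC was 0.25 (SE 0.51, limma, adjusted p = 0.759). In the RefSeq annotation the span of HOXD10 lies within that of HOXD9, and 351 bases of HOXD11 overlap it too. The supplementary list of the study instead gives HOXD10 a locus of its own, at chr15:81917835-81920460. Whether reads were divided among these 3 genes was not tested, so their values are uncertain.

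HOXA9 was followed in the order of the mean level in black skin by HOXC13, HOXA10, HOXC9, HOXD9 and HOXC10, whose black values overlapped with at least 1 neighbour each. In white skin the highest posterior levels were those of HOXA9, HOXD9 and HOXC9, with means of 4.81, 4.14 and 2.18 FPKM, where the range of HOXD9 overlapped those of HOXA9 and HOXC9, while HOXA9 (3.42 to 5.66) lay above HOXC9 (1.51 to 2.82). The lowest was HOXA13, at most 0.01001 FPKM in each of the 3 white samples.

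Summed by cluster, the posterior HOXA genes reached 5.71, 5.49 and 3.97 FPKM in white skin and 25.3, 60.9 and 42.4 in black skin of pigs 1, 2 and 3. The mean sum was 8.47 times as high in black skin. It rested largely on HOXA9, which gave 4.81 of 5.06 FPKM in white and 35.5 of 42.9 FPKM in black skin. The posterior HOXC genes summed to 4.04 ± 1.57 (SD, n = 3) FPKM in white against 13.9 ± 5.16 (SD, n = 3) in black skin, 3.45 times as high, with the highest value, 19.7 in pig 1, resting largely on HOXC13. For HOXD the sums were 4.89 ± 2.22 (SD, n = 3) and 5.93 ± 3.26 (SD, n = 3), a difference smaller than the spread between samples. With each sample scaled to 12 fibroblast markers, the log2 ratio of white to black mean sums moved from -3.08 to -1.77 for HOXA, from -1.79 to -0.38 for HOXC and from -0.28 to 0.99 for HOXD. No test was applied to these sums. The direction of HOXA9, HOXA10, HOXA11, HOXA13, HOXC10, HOXC13 and HOXD10 was fixed by the supplementary lists. The sums therefore describe these genes and support no statement about a cluster.

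The share of a cluster's FPKM held by its posterior genes does not depend on scaling between samples. For HOXA this share was 26.8% to 30.7% in white skin and 61.4% to 70.6% in black skin. For HOXC it was 18.4% to 32.4% in white skin and 45.4% to 66.4% in black skin. For HOXD it was 14.5% to 28.8% in white skin and 19.1% to 27.4% in black skin, so that the skins overlapped. The shares rest on the same genes as the sums, with HOXA9 the largest part for HOXA. They too are a description and support no statement about a cluster.

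**Figure D3:**
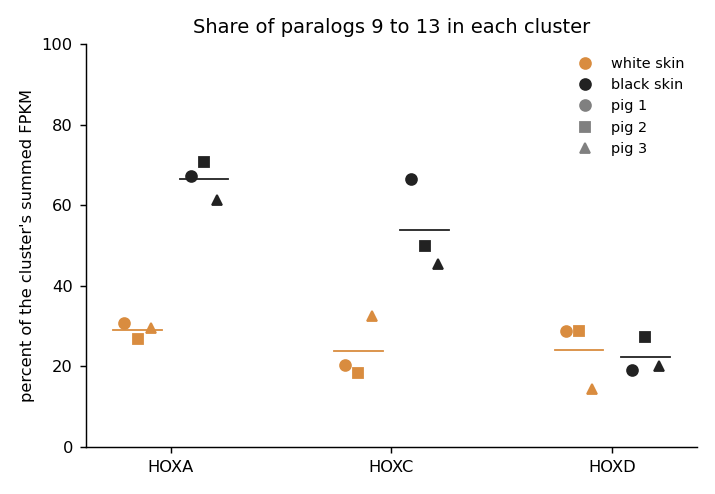
The plot of cluster shares gives the percent of the summed FPKM of each cluster held by paralogs 9 to 13 in each sample, with a line at the mean of each skin. The skins are apart for HOXA and HOXC, where the highest white sample is at 32.4% and the lowest black sample at 45.4%, and overlap for HOXD. The direction of most of these genes was fixed by the supplementary lists, so the shares are a description.

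The genes of paralogs 1 to 8 of the 4 clusters were counted in the same way. Of 23 such genes looked for, 18 were measured, of which 1 was down-regulated in white skin and none was up-regulated, a share near the 3.62% and 2.62% of all mRNAs, with a median log2FC of -0.50. The gene was HOXD3, with 0.443 ± 0.0315 (SD, n = 3) FPKM in white against 2.21 ± 0.536 (SD, n = 3) in black skin (log2FC -1.50, limma, adjusted p = 0.0262). HOXA5 had a log2FC of -1.42 and passed with the pig as a block but not without it (limma, adjusted p = 0.0367 and 0.0551). HOXC5 lay in the opposite direction, at 1.77, 1.63 and 0.891 FPKM in white skin and 0.677, 0 and 0.877 in black skin, and did not pass (log2FC 1.02, limma, adjusted p = 0.168). The difference between posterior genes and paralogs 1 to 8 as groups was not tested.

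HOXA7, the next measured gene beside HOXA9 in the cluster, had 7.56, 8.24 and 4.02 FPKM in white skin and 3.32, 7.30 and 5.83 in black skin of pigs 1, 2 and 3. The skins overlapped for HOXA7, with a log2FC of 0.25 (limma, adjusted p = 0.671). The ratio of HOXA9 to HOXA7 within a sample was 0.749, 0.650 and 0.852 in white skin and 6.61, 7.27 and 5.39 in black skin. The ratio of HOXC10 to HOXC8, the first HOXC gene below paralog 9, was 0.00750, 0.0474 and 0.0130 in white skin and 0.514, 0.680 and 0.805 in black skin. Taken in the same way against HOXA7, HOXC8 or HOXD8, the white ratios lay below all black ratios for the 4 posterior HOXA genes, for HOXC9, HOXC10, HOXD10 and HOXD11, and overlapped for HOXC11, HOXC13 and HOXD9. Of all other mRNAs, 18.2% lay below in white skin as a ratio to HOXA7, 27.2% as a ratio to HOXC8 and 32.7% as a ratio to HOXD8. The choice of these reference genes was made with their values known, and the ratios carry no test. The direction of HOXA9, HOXA10, HOXA11, HOXA13, HOXC10 and HOXD10 was fixed by the supplementary lists, and HOXD11 was above 0.5 FPKM only in black skin. The ratios of the posterior genes therefore describe them and support no statement about the group.

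**Figure D4:**
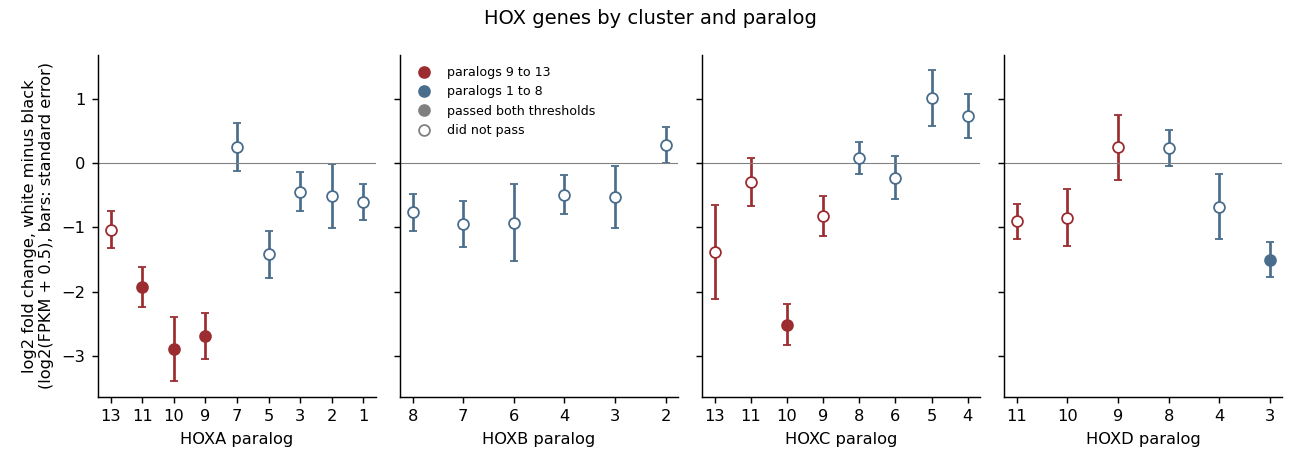
The plot of the 4 clusters gives the log2FC (white minus black) with its SE for the 29 measured HOX genes, ordered by paralog number. Red marks paralogs 9 to 13, blue marks paralogs 1 to 8, and filled circles mark genes that passed both thresholds (HOXA9, HOXA10, HOXA11, HOXC10 and HOXD3).

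Partners and regulators of HOX proteins were looked up as further lists. Of 10 TALE homeodomain genes, a class that includes cofactors binding DNA together with HOX proteins, 8 were measured and none passed. An unadjusted p below 0.05 was found for 1 of them, where 20.6% of all mRNAs had one with a lower level in white skin. The median log2FC was -0.61, against -0.31 over all mRNAs. The largest absolute log2FC values were those of TGIF1 (-0.89, limma, adjusted p = 0.246) and PBX4 (-0.79, limma, adjusted p = 0.204). Of 31 regulators of HOX expression, 25 were measured, of which 1 was down-regulated in white skin and none was up-regulated, again near the 3.62% of all mRNAs, with a median of -0.44. The gene was RARG, a receptor of retinoic acid, with a log2FC of -1.17 (limma, adjusted p = 0.0472). With the pig as a block 3 of the 25 passed, near the 9.66% of all mRNAs that passed in that way. They were RARG together with EZH1, a histone methyltransferase of the Polycomb group, and CYP26B1, which breaks down retinoic acid.

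Of 26 further transcription factors of position in limb and trunk, 14 were measured and 3 were down-regulated in white skin, against 3.62% of all mRNAs. MEOX1 and MEOX2, homeobox genes of the somites, had log2FC values of -2.01 and -1.62 (limma, adjusted p = 0.0426 and 0.0345). SHOX2, a gene of proximal limb growth, had a log2FC of -1.48 (limma, adjusted p = 0.0476). None of the 14 was up-regulated, and PRRX1, a factor of limb and skin mesenchyme, had 31.9 ± 6.83 (SD, n = 3) FPKM in white against 36.7 ± 1.02 (SD, n = 3) in black skin (log2FC -0.22, limma, adjusted p = 0.517). With quantile normalization none of the 65 genes of these lists and of paralogs 1 to 8 passed, against 5 without it.

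Between the posterior HOXC genes, from paralog 13 to paralog 9, lay 6 lncRNAs of the deposited table, whereas none lay between the posterior genes of HOXA. Of these 6, TCONS_00080835, on the minus strand at chr5:19178434-19178784, was down-regulated in white skin, as were 0.251% of all 7566 lncRNAs. The authors kept lncRNAs above 0.1 FPKM in at least 1 sample, and its 3 white values are below that minimum, so it could enter the table only with a higher level in black skin. It lies in the interval between HOXC12 and HOXC11, where the human HOTAIR lncRNA is found, and within the span of LOC110260667, a lncRNA of the RefSeq annotation. The white samples were listed at 0, 0.0808 and 0 FPKM and the black samples at 2.28, 7.43 and 1.72 in pigs 1, 2 and 3. On log2(FPKM + 0.1) the log2FC was -4.71 (SE 0.84, limma, adjusted p = 0.000285 over the lncRNAs). With any 1 of the 6 samples left out it ranged from -5.12 to -4.09 and no longer passed (limma, adjusted p = 0.305 to 0.571), and at most 5 of all lncRNAs then passed. TCONS_00080836 and TCONS_00080837 share its lower coordinate and strand, so reads could be divided among the 3 transcripts, and neither passed.

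Markers of cell types moved with the skins too. For comparison, 3.62% of all mRNAs were down-regulated and 2.62% were up-regulated in white skin. Of 12 measured fibroblast markers, 4 were down-regulated in white skin (DCN, FBLN1, PDGFRB and COL5A1, with log2FC values from -1.95 to -1.51), and the sum of the 12 ranged from 2758 to 5382 FPKM in white skin and from 6859 to 10902 in black skin. When each sample was scaled to these fibroblast markers, 54 mRNAs (0.362%) were down-regulated in white skin, of which 38 were so without this scaling. HOXA9, HOXA10, HOXA11 and HOXC10 were among them, while 32.8% of all mRNAs were up-regulated, HOXD9 among them (log2FC 1.39, limma, adjusted p = 0.0336). The log2FC values of the first 4 were then -1.42, -2.06, -1.38 and -1.81. This scaling moved the median of all mRNAs to 0.82. Of 8 adipocyte markers 6 were down-regulated in white skin (PLIN1, CIDEC, LEP, FABP4, ADIPOQ and LPL), as were 3 of 4 endothelial markers (PECAM1, CDH5 and KDR). The same held for 6 of 10 melanocyte markers (PMEL, TYRP1, MLANA, DCT, TRPM1 and KIT) and for 1 of 5 immune markers (CD68). The remaining adipocyte markers, PLIN4 and PPARG, did not pass, with log2FC values of -0.86 and 0.34. MS4A1 of the immune list had a log2FC of 0.09 and did not pass either. Of 4 smooth muscle markers 3 were up-regulated in white skin (CNN1, MYH11 and TAGLN), where their sum was 2832 to 5173 FPKM against 450 to 1403 in black skin. Of 9 skeletal muscle markers 3 were measured, of which DES, a gene that smooth muscle expresses too, and CKM were up-regulated in white skin, while ACTA1 did not exceed 1.77 FPKM in any sample. None of the 5 basal or the 5 differentiated keratinocyte markers passed with limma. An unadjusted p below 0.05 was found for 3 of the basal and 0 of the differentiated markers. Over all mRNAs, 20.6% had one with a lower level in white skin. With the pig as a block ITGA6 of the basal list passed (log2FC -1.03, limma, adjusted p = 0.0464). The largest changes were those of ITGB4 and COL17A1 among the basal markers (log2FC -1.21 and -1.19) and of IVL and DSC1 among the differentiated markers (-1.82 and -1.26). The summed FPKM was 176 to 589.5 in white and 881 to 2099 in black skin for the adipocyte list, and 29.1 to 33.6 against 73.2 to 156 for the endothelial list. For melanocytes the sums were 7.93 to 10.97 in white and 45.1 to 192 in black skin, for immune cells 6.73 to 11.8 and 18.3 to 51.1, and for skeletal muscle 962 to 1081 and 41.7 to 139, of which DES alone gave 917 to 1052 and 40.2 to 134. The keratinocyte sums overlapped between the skins, at 385 to 461 and 418 to 1024 for basal and 62.8 to 706 and 306 to 925 for differentiated cells. TYR, which encodes the enzyme that starts melanin synthesis, was listed at 0 in the 3 white samples and in black skin of pig 3. The part of other cell types in the HOX values was not tested.

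The 4 calls did not hold in every fit with 1 sample left out, and the count over all mRNAs, 930 with all samples, fell too. HOXA9 and HOXC10 each passed in 5 of the 6 fits with 1 sample left out, HOXA11 in 4 and HOXA10 in 2. Without white skin of pig 2 none of the 4 passed, and 35 of all mRNAs did. Without white skin of pig 1, HOXA9 and HOXC10 passed and HOXA10 and HOXA11 did not, and 219 of all mRNAs passed. HOXA10 also failed to pass without black skin of pig 2 and without black skin of pig 3, where 200 and 192 of all mRNAs passed. The direction was the same in all of these fits, with log2FC values from -2.99 to -2.36 for HOXA9, from -3.44 to -2.53 for HOXA10, from -2.06 to -1.66 for HOXA11 and from -2.72 to -2.29 for HOXC10. With the pig as a block the 4 genes passed, where 6.42% of all mRNAs were down-regulated in white skin. They also passed with upper-quartile scaling (1.97% of all mRNAs) and with quantile normalization (1.46%).

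**Figure D5:**
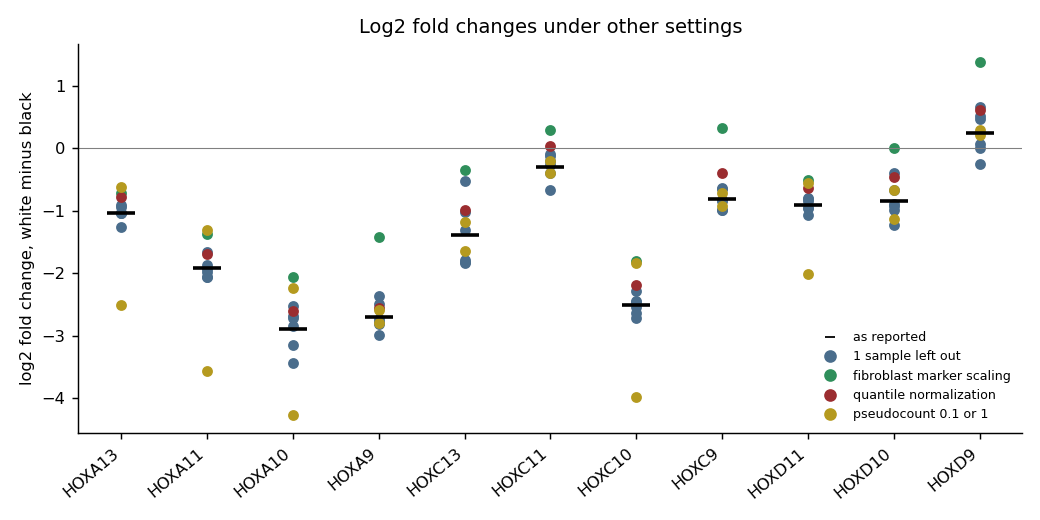
The plot of other settings gives, for each of the 11 posterior HOX genes, the log2FC (white minus black) as reported and with 1 sample left out, with fibroblast marker scaling, with quantile normalization and with other pseudocounts. HOXA9, HOXA10, HOXA11, HOXA13, HOXC10, HOXC13 and HOXD11 stay below 0 throughout, and HOXC9, HOXC11, HOXD9 and HOXD10 cross 0 in at least 1 setting.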

How the data were processed

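RNA-seq of poly(A) RNA was run on 6 skin samples of 3 pigs. The deposited values are FPKM, which the authors calculated with StringTie 1.3.3 on the pig genome Sscrofa11.1. The methods name TopHat as the aligner and the submitters' processing notes name HISAT2 2.0.4, so the aligner was not settled here. The authors kept mRNAs above 0.5 and lncRNAs above 0.1 FPKM in at least 1 sample. No counts were used, so the depth is unknown. FPKM summed to between 408598 and 501424 per sample over the mRNAs, with medians of 4.46 to 4.96 in white and 5.65 to 6.70 in black skin.

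For the comparison of the skins, the trend method of limma 3.58.1 (R 4.3.3) was applied after adding 0.5 to the FPKM of mRNAs or 0.1 to that of lncRNAs and taking log2. The study's methods did not use the pig in the model. Both samples of a number come from the same pig. Deviations from the skin means correlated within the pigs at 0.208, 0.360 and 0.204 across mRNAs, so a fit blocked by pig was made as well. The mRNA fit was tested on simulated data before use.

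Symbols came from a table of identifiers (12236 of 14900 mRNAs) or, for 183 more, HOXA13 among them, from the supplementary lists. Positions came from the RefSeq table of Sscrofa11.1, the same assembly. All posterior HOX genes are named, as are the 5 mRNAs with the closest profile. From other lists, genes past both thresholds are named, otherwise the 2 with the largest change. The remaining genes (HOXA5, HOXA7, HOXC5, HOXC8, HOXD8, EZH1, CYP26B1, PRRX1, ACTA1, TYR, ITGA6, PLIN4, PPARG, MS4A1 and the other blocked hair genes) were chosen after their values were seen. The members and lists were chosen with earlier results of these data known. Alternatives were other pseudocounts, scalings, filters on the mean FPKM, no trend, unadjusted p, the block and leaving out each sample. Summaries were made in Python 3.11.15 with pandas 2.3.3.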

Additional observations from a re-analysis of the deposited data

How the results depend on the processing

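With each sample left out, the count of posterior HOX genes past both thresholds ranged from 0 to 5, and the lowest count was that without white skin of pig 2. It was 4 with the pig as a replicate block, so the pairing changed no call of these 11 genes. The count over paralogs 1 to 8, HOX partners, regulators and positional factors was 5. It was 8 with the pig as a replicate block, 3 with upper-quartile scaling, 0 with quantile normalization, 12 with p before adjustment and 0 to 7 with a sample left out. With fibroblast marker scaling 18 passed, all higher in white skin. The count of lncRNAs inside the clusters was 1, which became 2 with p before adjustment and 0 with any sample left out. Over the whole mRNA table, 539 fell and 391 rose in white skin. These counts were 217 and 483 with quantile normalization, 294 and 558 with upper-quartile scaling, and 54 and 4890 with fibroblast marker scaling, and the median over all mRNAs moved from -0.31 to -0.03, -0.13 and 0.82. The count of all mRNAs past both thresholds was 930, rose to 1439 with the block and 2288 with p before adjustment, and ranged from 35 to 847 with a sample left out. The log2 ratio of white to black cluster sums, -3.08 for HOXA, -1.79 for HOXC and -0.28 for HOXD, moved to -1.77, -0.38 and 0.99 with fibroblast marker scaling. For HOXD it ranged from -0.65 to 0.13 with a sample left out. Reversed log2 fold changes were 0.031 for HOXC11 with quantile normalization, 0.30 for HOXC11, 0.33 for HOXC9 and 0.012 for HOXD10 with fibroblast marker scaling, and -0.24 for HOXD9 without black skin of pig 1, where leaving out each sample gave -0.24 to 0.66. HOXD9 passed as higher in white skin with fibroblast marker scaling (log2 fold change 1.39). The causes were not tested. HOXA13, HOXC11 and HOXD11 have no value with a minimum mean FPKM of 0.5, and HOXA11 has none either with a minimum of 1. Genes below 1 FPKM are limited by an unknown depth.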

Other observations

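The 5 named mRNAs with the sample profile closest to the mean of the 6 posterior HOX genes from the supplementary lists were PCDH12, RSAD2, CDO1, STK10 and MYRIP. Closeness was measured as the root mean square distance of centred log2(FPKM + 0.5) values over the 6 samples, among 12419 named mRNAs. The distance was 0.150 for PCDH12, a protocadherin, 0.152 for RSAD2, an interferon-induced gene, 0.156 for CDO1, a cysteine dioxygenase, 0.169 for STK10, a protein kinase, and 0.170 for MYRIP, which links melanosomes to myosin. PCDH12 had 0.275, 0.320 and 0.310 FPKM in white skin and 1.36, 1.99 and 2.38 in black skin of pigs 1, 2 and 3. For CDO1 the white samples were at 2.76, 2.08 and 3.25 FPKM and the black samples at 9.66, 9.19 and 10.4. The choice of these genes fixes their lower level in white skin, so no test is given.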
